A study of Mus musculus with 6 samples.

Results

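The genes described here are the 9 receptors, accessory chains and decoys of the interleukin-1 (IL-1) family: Il1r1, Il1r2, Il1rap, Il1rl1, Il1rl2, Il18r1, Il18rap, Il18bp and Sigirr. They were taken by the gene name on the array, which carried 19 probes for them among 41174 probes of 27573 gene names. RNA came from 6 cultures of primary keratinocytes of newborn wild-type mouse epidermis, all of them transduced with v-ras-Ha by an adenovirus at 10 viral particles per cell, so the PBS cultures carry the oncogene too. Anakinra, a recombinant IL-1 receptor antagonist, was added to 3 cultures at 5 ug/ml 5 hours after transduction and replaced after 2 days, and the other 3 received PBS; RNA was prepared after 3 days. There was no group without v-ras-Ha, and the isolation also included hair follicle buds. Whether the 3 cultures of a group had different animals of origin is not in the labels; the p-values then reflect culture-to-culture spread alone, possibly technical.

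IL-1 alpha and IL-1 beta bind Il1r1, which then takes up the accessory chain Il1rap; the intracellular TIR domains of the pair recruit MyD88 and lead to NF-kB. Il1r2 binds the same ligands but has no TIR domain and acts as a decoy. Il1rl2 is the receptor for IL-36, Il1rl1 (ST2) for IL-33 and Il18r1 with Il18rap for IL-18, while Il18bp is a secreted protein that captures IL-18 and Sigirr is a TIR-containing receptor known to dampen signalling of the family. Anakinra occupies the ligand site of Il1r1 without recruiting Il1rap. The comparison therefore measured whether the transcripts of the targeted receptor and its relatives differed when that receptor was blocked in ras-expressing keratinocytes.

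None of the 9 receptor family genes passed the test, in either direction. Of all 16495 genes tested, 1.77% passed (0.970% higher and 0.800% lower in Anakinra; limma adjusted p under 0.05). The family's 9 log2 changes, Anakinra minus PBS, ran from -0.30 for Sigirr to 0.46 for Il1r2, with a median of 0.24 against 0.01 over all genes tested. Of the 9 changes 8 were positive, as were 52.3% of all genes. Sigirr, the inhibitory receptor, had the lowest adjusted p of the 9 (0.201) and was the 1 member with an unadjusted p under 0.05 (0.0177); 16.1% of all genes had such a p. The groups did not overlap for Il1rl2 and Il18r1, higher in Anakinra, and Sigirr, lower; this held for 26.2% of all genes, 12.5% higher and 13.8% lower.

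**Figure D1:**
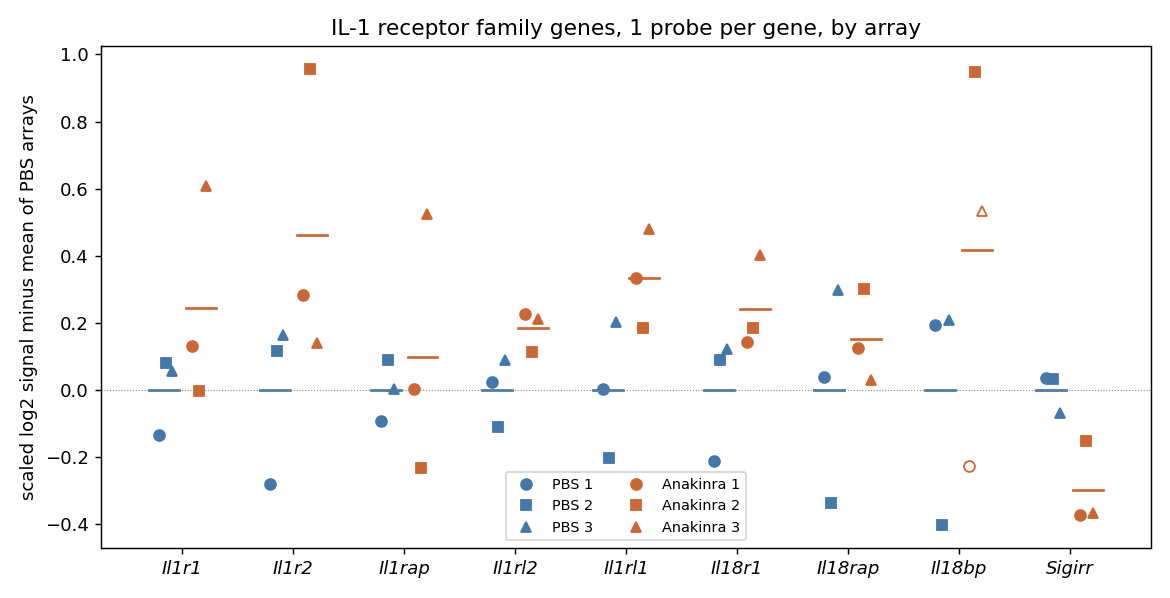
Scaled log2 signal of the probe standing for each gene, minus the mean of the 3 PBS arrays, by array (blue PBS, orange Anakinra; symbols give the replicate number, open symbols mark a value not well above background, lines are group means). The Anakinra mean lies above the PBS mean in 8 of 9 genes and below it in Sigirr, and Anakinra 2 is the highest array for Il1r2 and Il18bp.

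Signals are given as scaled log2 values, in which 0 is the 75th percentile of the same array. The arrays were not alike in their dim range. Probes well above background made up 62.5% to 71.0% of spots on the PBS arrays and 56.1%, 86.5% and 55.6% on Anakinra 1, 2 and 3. The 5098 probes below that limit on all 6 arrays had a median scaled log2 value of -8.48 to -8.04 in PBS and of -7.67, -7.10 and -6.99 in Anakinra 1, 2 and 3. Arrays correlated at 0.995 to 0.997 within PBS and 0.957 to 0.983 within Anakinra. The precision is limited by 3 arrays per group.

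Of the 19 receptor probes, 11 were well above background on all 6 arrays, and these covered 8 of the 9 genes; Il18bp had no such probe. Another 4 entered the test through the PBS arrays alone: both Il18bp probes, 1 Il1r2 probe and 1 Il1rap probe. The remaining 4 were not tested. Fitted probe by probe, 0 of the 15 tested probes passed, where 1.11% of 25013 probes did, and 2 had an unadjusted p under 0.05 (14.2% of all probes). For 3 of the 15 the Anakinra values all lay above the PBS values and for 1 all below, where 24.6% of all probes did not overlap, 12.3% in each direction. The change was positive for 11 of the 15 and for 53.2% of all probes.

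Of the 9 genes, 6 lie in a row on mouse chromosome 1. By probe position in the array design (build mm8), the order was Il1r2 (1:40056672-40067774, from the start of its first to the end of its last probe), Il1r1 (1:40260368-40260427), Il1rl2 (1:40290353-40312005), Il1rl1 (1:40386043-40409712), Il18r1 (1:40445242-40445301) and Il18rap (1:40470431-40493489), all on the + strand. The log2 changes along this row were 0.46, 0.25, 0.18, 0.33, 0.24 and 0.15. All 6 were positive, and none passed. The other 3 genes lie elsewhere, Il1rap at 16:26616645-26645022 and, on the - strand, Il18bp at 7:101889407-101889939 and Sigirr at 7:140942511-140942570.

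As the study asks about NF-kB, the start-site windows of the family were read from RefSeq (build GRCm38.p6; 250 bases before and 50 after a start). The table held 12 windows for 8 of the 9 genes, all but Sigirr. Of 6 overlapping patterns searched on both strands, the NF-kB consensus matched a window of Il1r1 and was in 4.51% of all 32851 windows. Another 4 forms of the motif, each 10 letters long and some with free positions, were searched. Of these, 2 matched no window of the family and were in 0.0883% and 1.47% of all windows, 1 matched Il1r1 (5.56% of all windows) and 1 matched Il1rap (20.7%). The palindrome GGAANTTCC, which shares its core with NF-kB motifs, was in windows of 4 of the 8 genes, all on chromosome 1, and of 1.07% of all genes; by window, it was in 4 of the 12, and in 0.928% of all windows. The 4 sites are shown in capitals with 10 bases on each side, since this short pattern is what those windows share; it was picked out after the 6 patterns had been searched.

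Il1r2 (chr1:40085977-40086005, + strand): gctttttcaaGGAACTTCCgactactctg
Il1rl2 (chr1:40324463-40324491, + strand): cattgcttaaGGAATTTCCtgcttctccc
Il1rl1 (chr1:40439626-40439654, + strand): ggtaagtttaGGAATTTCCagtaagtgag
Il18rap (chr1:40515333-40515361, + strand): atttggtacaGGAAATTCCtgtaaaggaa

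The sites began 106 and 116 bases before the start of Il1r2 and Il1rl2, 19 bases before that of Il18rap, and at base 8 of an Il1rl1 transcript. For wider context, the 250 bases before the start are printed for the 3 genes whose site lies there, with the same letters in capitals.

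Il1r2 (chr1:40085843-40086092, + strand): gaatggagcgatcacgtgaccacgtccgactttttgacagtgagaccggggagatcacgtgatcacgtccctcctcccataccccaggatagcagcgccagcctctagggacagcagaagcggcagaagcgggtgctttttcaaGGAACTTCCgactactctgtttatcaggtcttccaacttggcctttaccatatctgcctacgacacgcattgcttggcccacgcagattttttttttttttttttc
Il1rl2 (chr1:40324339-40324588, + strand): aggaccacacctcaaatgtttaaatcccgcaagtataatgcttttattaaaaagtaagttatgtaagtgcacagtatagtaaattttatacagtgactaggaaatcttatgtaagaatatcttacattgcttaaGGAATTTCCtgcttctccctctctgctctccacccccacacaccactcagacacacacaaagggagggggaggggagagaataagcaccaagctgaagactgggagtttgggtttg
Il18rap (chr1:40515112-40515361, + strand): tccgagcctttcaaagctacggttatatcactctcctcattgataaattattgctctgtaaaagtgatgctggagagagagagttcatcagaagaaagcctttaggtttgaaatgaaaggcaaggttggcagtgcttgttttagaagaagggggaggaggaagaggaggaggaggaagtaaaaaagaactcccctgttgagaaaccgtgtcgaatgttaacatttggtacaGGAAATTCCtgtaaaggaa

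A match in a window is a description of its letters. On neither strand do the 4 sites have the GGG that opens the other patterns searched. The 4 genes that hold it had log2 changes of 0.46, 0.18, 0.33 and 0.15, none of which passed.

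The targeted receptor Il1r1 was measured by 1 probe. It read, in scaled log2, -1.90, -1.69 and -1.71 on the PBS arrays and -1.64, -1.77 and -1.16 in Anakinra 1, 2 and 3. The groups overlapped, and Anakinra 3 was the highest array. The change was 0.25 ± 0.18 (SE, 3 arrays per group; limma adjusted p = 0.576). Its 95% confidence interval ran from -0.21 to 0.70. As a ratio of Anakinra to PBS, the interval of the probe fit ran from 0.867 to 1.62. Without Anakinra 3 the change was 0.06.

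The decoy Il1r2 was dim. Its brighter probe (1:40067715-40067774) read -4.77, -4.37 and -4.33 in PBS and -4.21, -3.53 and -4.35 in Anakinra, well above background on all 6 arrays. The change was 0.46 ± 0.26 (limma adjusted p = 0.456; interval -0.18 to 1.11), and the groups overlapped because Anakinra 3 lay below PBS 3. The other Il1r2 probe, whose coordinates in the design span 1:40056672-40059619, read -5.28, -4.58 and -4.48 in PBS and -5.18, -3.13 and -5.02 in Anakinra. Only Anakinra 2 was high there, and it was the single Anakinra array above background. Without Anakinra 2 the 2 probes were at 0.21 and -0.32, and with normexp, an alternative background correction, at 0.22 and 0.13. The high share of probes above background on Anakinra 2 moves with these values, and its part in them was not tested.

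The accessory chain Il1rap exists as a membrane form, which signals, and a shorter soluble form. The probe for transcript variant 1, the membrane form (16:26631279-26631337), had a change of -0.07 ± 0.17 and was above background on 5 arrays. The probe for variant 2, the soluble form (16:26616645-26616704), was also at -0.07 ± 0.12, with values of -3.51, -3.18 and -3.20 in PBS and -3.45, -3.37 and -3.27 in Anakinra (limma adjusted p = 0.858). No difference beyond the spread of the arrays was measured for either form, and the variant 2 interval ran from -0.37 to 0.23. The brightest probe, designed on a cDNA clone (16:26632336-26632395), stood for the gene at 0.10 ± 0.21 (limma adjusted p = 0.882). Its Anakinra values were -0.32, -0.56 and 0.20 against -0.42, -0.24 and -0.32 in PBS, so its positive sign rests on Anakinra 3, without which it was at -0.11. The 2 other clone probes were above background on 2 arrays and on none.

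Il1rl2, which binds the IL-36 cytokines of the epidermis, had its brighter probe (1:40311946-40312005) above the 75th percentile of every array. That probe read 1.64, 1.51 and 1.71 in PBS and 1.85, 1.73 and 1.83 in Anakinra. Every Anakinra array was above every PBS array. The change was small, at 0.18 ± 0.08 (limma adjusted p = 0.351; interval -0.02 to 0.39), with an upper end of 1.31-fold in the probe fit. It was 0.24 within slide 1 and 0.14 within slide 2. Slide 1 held 1 Anakinra array (Anakinra 1) and slide 2 held 1 PBS array (PBS 1). Every within-slide value given here thus rests on 1 array in 1 of its groups. The probe on the gene's own RefSeq transcript (1:40290353-40290412) was at 0.05 ± 0.27, with -2.36, -2.37 and -2.20 in PBS and -2.27, -1.73 and -2.76 in Anakinra. There the Anakinra arrays lay on both sides of the PBS arrays.

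Il1rl1 also makes a membrane receptor and a soluble decoy that captures IL-33. The probe for transcript variant 1, the membrane form (1:40409653-40409712), read -4.85, -4.60 and -4.43 in PBS and -3.75, -4.32 and -4.03 in Anakinra, above background throughout. All 3 Anakinra values were higher than all PBS values. The change of 0.59 ± 0.19 was the largest among the 15 tested probes and did not pass (unadjusted p = 0.0216, limma adjusted p = 0.258; interval 0.13 to 1.06). It was 0.77 within slide 1 and 0.67 within slide 2, and 0.45 without Anakinra 1, the highest array. With normexp it was at 0.21, and with quantile scaling at -0.06. The probe for variant 2, the soluble form (1:40392470-40392529), stood for the gene at 0.33 ± 0.14 (limma adjusted p = 0.327), with -3.42, -3.63 and -3.22 in PBS and -3.09, -3.24 and -2.94 in Anakinra; only Anakinra 2 fell inside the PBS range. The dimmest probe (1:40386043-40386905) was above background on 2 PBS arrays and 1 Anakinra array and was not tested.

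The IL-18 binding chain Il18r1 read -2.20, -1.91 and -1.87 in PBS and -1.85, -1.81 and -1.59 in Anakinra. The lowest Anakinra array lay just above the highest PBS array. The change was 0.24 ± 0.13 (limma adjusted p = 0.432; interval -0.08 to 0.56). It was 0.04 within slide 1 and 0.50 within slide 2, and 0.14 without PBS 1. Its co-receptor Il18rap read -3.97, -4.35 and -3.71 in PBS and -3.89, -3.71 and -3.98 in Anakinra, a change of 0.15 ± 0.18 (limma adjusted p = 0.754) that became -0.02 without PBS 2. A second Il18rap probe was above background on Anakinra 2 alone.

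Il18bp had 2 probes on the same transcript that went opposite ways, each above background on all PBS arrays. The first (7:101889407-101889466) was at -0.15 ± 0.19, with -5.19, -5.11 and -5.10 in PBS and -5.32, -4.91 and -5.63 in Anakinra. The second (7:101889880-101889939), which stood for the gene by its mean signal, was at 0.42 ± 0.35 (limma adjusted p = 0.627), with -5.20, -5.80 and -5.19 in PBS and -5.62, -4.45 and -4.86 in Anakinra. Among the Anakinra arrays, the first probe was above background on Anakinra 1 and Anakinra 2, and the second on Anakinra 2 alone. Without Anakinra 2 the second probe was at 0.15 and the first at -0.34, and within slide 1 at -0.13 and -0.21. A direction for Il18bp could not be read from these probes.

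Sigirr was the 1 gene of the family lower in Anakinra. Its probe read -1.09, -1.09 and -1.19 in PBS and -1.49, -1.27 and -1.49 in Anakinra, above background on all arrays. All 3 Anakinra arrays lay below all PBS arrays. The change was -0.30 ± 0.09 (limma adjusted p = 0.201), with a 95% interval from -0.52 to -0.08. It was -0.35 within slide 1 (PBS 2, PBS 3 and Anakinra 1) and -0.30 within slide 2 (PBS 1, Anakinra 2 and Anakinra 3), and -0.28 with normexp. No setting tried brought the adjusted p under the threshold; the lowest was 0.0961, with weights estimated for each array.

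**Figure D2:**
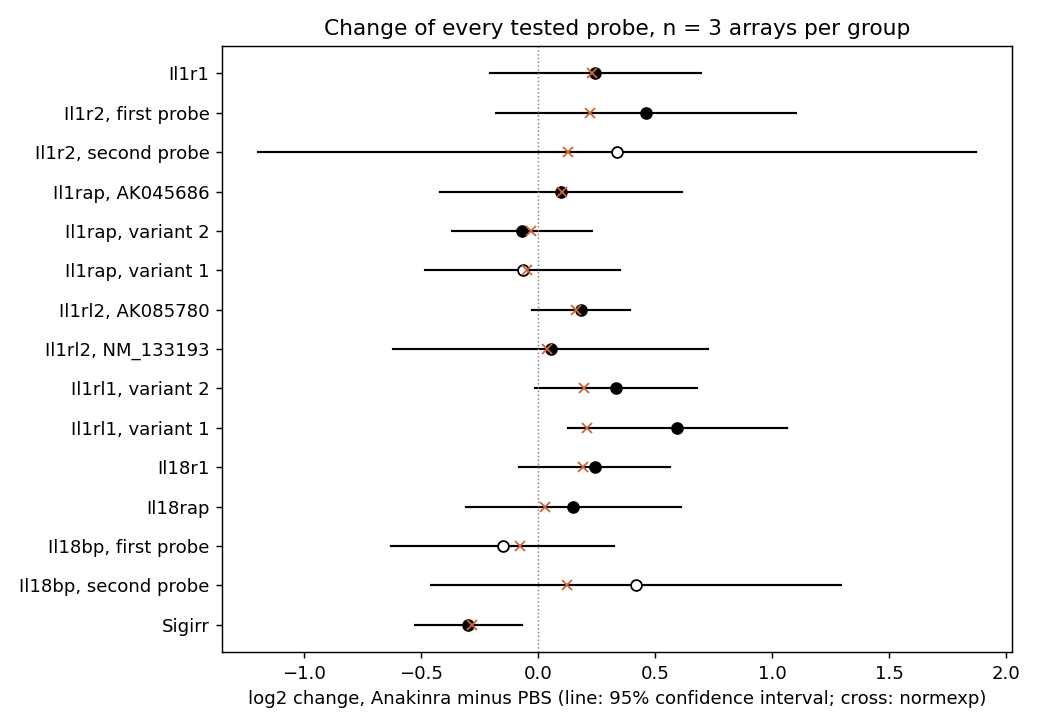
Log2 change, Anakinra minus PBS, of the 15 tested probes (circles) with 95% confidence intervals from the probe fit and the change after normexp background correction (crosses); open circles mark probes not above background on all 6 arrays. The interval excludes 0 for Sigirr and the Il1rl1 variant 1 probe, neither of which passed after adjustment, and normexp draws the dim probes towards 0.

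Differences between 2 probes of the same array do not change when 1 constant is subtracted from an array, as here, though quantile scaling does change them. The value for Sigirr minus Il1r1 was 0.82, 0.60 and 0.52 in PBS and 0.15, 0.50 and -0.33 in Anakinra, a mean of 0.65 ± 0.15 (SD, n = 3) against 0.11 ± 0.41. Every Anakinra array was lower, by 0.54 on average (exact permutation test, two-sided, p = 0.1, adjusted over 4 pairs 0.2). An exact p of 0.1 is the smallest that 3 against 3 can give, so no pair could reach 0.05. The shift was -0.42 within slide 1 and -0.73 within slide 2. It was -0.33 without Anakinra 3, the array of the lowest value, and -0.74 without Anakinra 2. With quantile scaling it was -0.48 (exact permutation p = 0.3).

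Il1rap minus Il1r1 used the clone probe that stood for Il1rap. This difference was 1.48, 1.45 and 1.39 in PBS and 1.32, 1.21 and 1.36 in Anakinra. It was lower in every Anakinra array, by 0.15 on average (exact permutation p = 0.1). The 2 probes varied together across the arrays, and both were highest on Anakinra 3. The Il1rap variant 1 and variant 2 probes were not tested in this pair. Il1r2 minus Il1r1 was -2.87, -2.68 and -2.61 in PBS and -2.57, -1.76 and -3.19 in Anakinra, with a shift of 0.22 (exact permutation p = 0.7). Its Anakinra arrays spread over both sides of PBS, and the sign turned without Anakinra 2 (-0.16), with normexp (-0.0083) and with quantile scaling (-0.13). Il1rl1 variant 1 minus variant 2, a pair added after the probes were seen, shifted by 0.26 (exact permutation p = 0.3), by 0.01 with normexp and by 0.05 with quantile scaling.

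**Figure D3:**
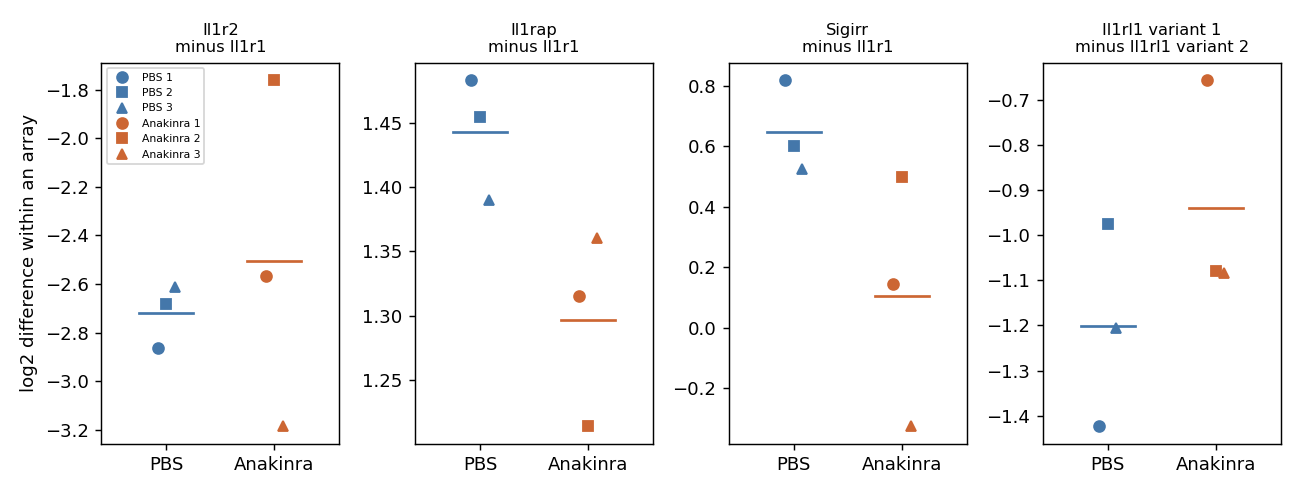
Log2 difference between 2 probes of the same array for 4 pairs (points are arrays, lines group means, one vertical scale per panel). Sigirr minus Il1r1 and Il1rap (clone probe) minus Il1r1 are lower in all 3 Anakinra arrays, by 0.54 and 0.15 on average. The groups overlap in the other 2 panels.

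The size of these changes depended on the reference each array was scaled to. With the array median in place of the 75th percentile, the median change of all genes moved from 0.01 to -0.32 and only Il1r2, Il1rl1 and Il18bp kept a positive sign. A constant per array shifts all genes alike, so changes relative to the median of all genes could hardly move. In that fit 8 of 9 genes lay above this median, with Il1r1 at 0.23 and Sigirr at -0.31. The 20 settings run share the same arrays. Those that differ only by a constant per array, or by the replicate block, repeat nearly the same relative values by construction. Sigirr lay below the median of all genes in 20, at -0.46 to -0.28. Il1r1, Il1r2, Il1rl2 and Il18r1 lay above it in 20, Il1rl1 in all but 1 of 20 and Il18bp in all but 1 of 19. Il1rap and Il18rap lay below it in 4 and 3 of the 20. With quantile scaling 6 of 9 genes lay above that median, as with no filter on dim probes and within slide 1. That count was 7 of 9 with the mean of a gene's probes, without PBS 2 and without Anakinra 3.

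**Figure D4:**
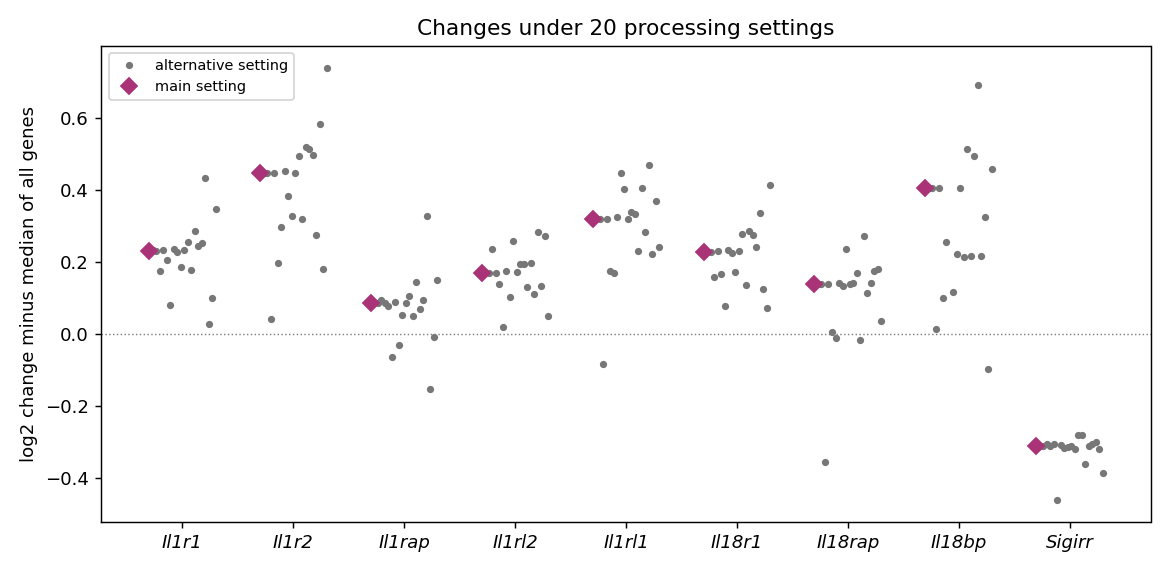
Log2 change of each gene minus the median change of all genes, under the main setting (diamonds) and the alternatives (grey points, in the same order for each gene), with the same probe standing for a gene throughout, except where a gene's probes were averaged. Sigirr stays between -0.46 and -0.28, and Il1r1, Il1r2, Il1rl2 and Il18r1 stay above 0, while Il18bp ranges from -0.10 to 0.69.

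The ligands of these receptors are given for comparison. Among 10 ligand and antagonist genes, all tested, 2 were called higher and 1 lower, the other 7 not passing (median 0.14). Il1a, the IL-1 alpha gene, fell by 1.51 on the log2 scale (limma adjusted p = 0.00391), beside a change of 0.25 in Il1r1. Il18 rose by 1.33 (limma adjusted p = 0.0161), beside 0.24 in Il18r1 and 0.15 in Il18rap. Il36b (Il1f8 on the array) rose by 0.78 (limma adjusted p = 0.0130), beside 0.18 in Il1rl2. The other IL-36 genes did not move with it: Il36a was at -0.81 (limma adjusted p = 0.0808) and Il36g at 0.04, neither passing. With the slide as a block Il1a still passed, while Il18 and Il36b did not (limma adjusted p = 0.0760 and 0.0647).

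**Figure D5:**
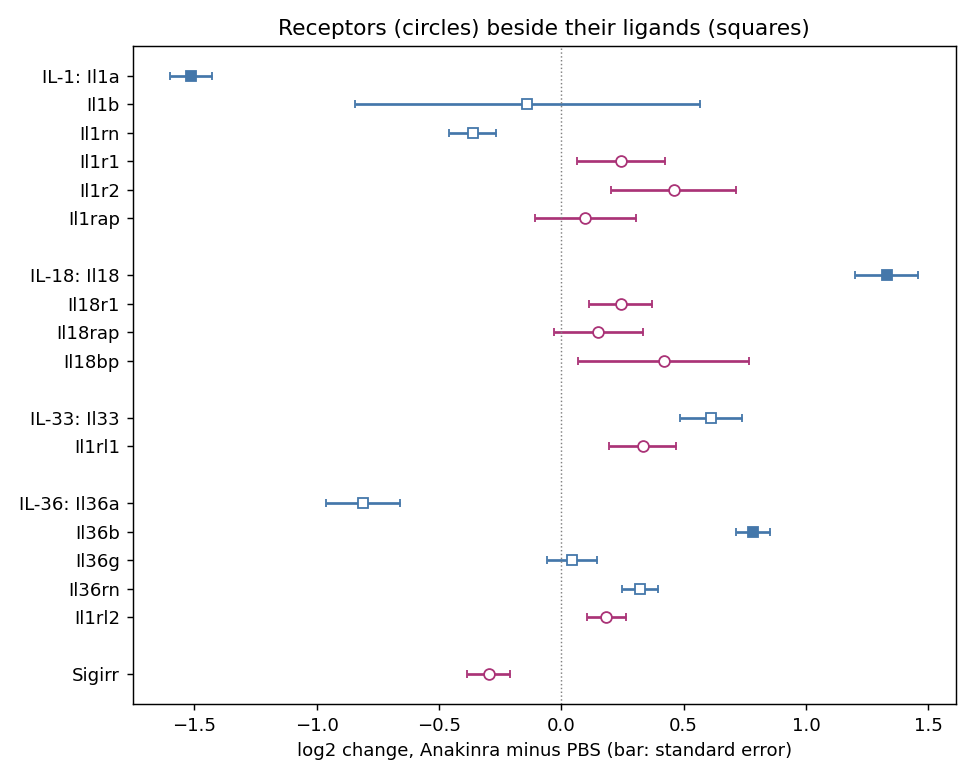
Log2 change, Anakinra minus PBS, with standard error, of each receptor gene (circles) beside the ligand and antagonist genes it is known to pair with (squares); filled symbols passed the test. The filled squares are Il1a at -1.51, Il18 at 1.33 and Il36b at 0.78, and no circle is filled.

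Below the receptors, 0 of 17 adaptor and kinase chain genes passed (median 0.05); the smallest p-values were those of the scaffold gene Sqstm1 at -0.36 ± 0.08 (limma adjusted p = 0.117) and the kinase gene Map3k3 at 0.17 ± 0.07 (limma adjusted p = 0.308). Of 9 genes of receptor shedding and turnover, 0 passed (median 0.01). Rhbdf2, which supports the sheddase ADAM17, was at -0.29 ± 0.07 (limma adjusted p = 0.121), and the aminopeptidase gene Erap1 at -0.33 ± 0.10 (limma adjusted p = 0.199). Of the remaining relatives, Il1rapl1 was above background on no array and Il1rapl2 on 3.

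Over the 6 arrays, the genes whose values tracked Il1r1 most closely were Oxsr1, Oxr1 and Usp15 (Pearson r of 0.999, 0.997 and 0.997), and those tracking Il1r2 were A830005F24Rik, Zbtb3 and Eci3 (0.994, 0.993 and 0.989). Among 14067 genes above background on all arrays, 293 had an r over 0.95 with Il1r1 and 61 with Il1r2. All of these share the same 6 arrays and their scaling.

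Keratinocyte markers were present, with Krt5 and Krt14 above background on every array at changes of -0.14 and -0.04. Of the 8 keratinocyte markers 2 rose, the differentiation keratins Krt1 and Krt10. Several receptors are known from other cells, so markers of those cells were read as well; fewer cells and less RNA per cell cannot be told apart in such samples. The mast cell markers Cpa3 and Ms4a2 were above background on no array, 2 of the 8 mast cell markers were tested and neither passed. Of the T and NK cell markers on the array 3 of 7 were tested, and of the macrophage and dendritic cell markers 5 of 8, and none passed; Cd3e, Cd3d and Cd3g were each above background on 2 or 3 of the 6 arrays. The endothelial markers gave 3 tested genes of 5, none of which passed. Of 9 fibroblast markers, 2 rose, Lum and Col3a1. Only Dcn had a negative change, at -0.38 (limma adjusted p = 0.0703). The summed signal of the tested fibroblast genes (in units of the array's 75th percentile) was 9.49 to 11.5 in PBS and 12.7 to 14.9 in Anakinra. The same sum was 1.84 to 2.37 in PBS and 2.57 to 3.25 in Anakinra for T and NK cell markers, and 0.302 to 0.321 and 0.348 to 0.437 for mast cell markers. Of the 3 T and NK cell genes summed, Thy1 was at 0.40 and Il2rb and Nkg7 at -0.30 and -0.03. Of the 2 mast cell genes summed, Kit was at 0.41 and Cma1 at -0.43. The 3 sums were higher on every Anakinra array than on any PBS array. So were Il18r1, the Il1rl2 probe standing for the gene and the Il1rl1 variant 1 probe. The same held for 12.5% of all genes and 12.3% of all probes. The part of the sums in the receptor values was not tested. For endothelial markers the sum was lower, 2.00 to 2.12 in PBS and 1.61 to 1.91 in Anakinra, and for macrophage and dendritic cell markers the ranges of 4.37 to 4.89 and 4.26 to 4.48 overlapped.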

How the data were processed

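Total RNA of 6 cultures was hybridised to 6 one-colour Agilent arrays. Per the file headers, the authors ran Agilent Feature Extraction 9.5.3.1, which subtracted background from each spot's intensity, detrended the array and gave very dim spots a surrogate; arrays were not scaled to one another. The authors' deposited value table holds that intensity on a log2 scale plus 1 constant per array, by a rule not given in the sources used here. From the scanner files, the log2 processed intensity minus the array's 75th percentile was taken; control spots and outlier flags were left out and spots of a probe averaged. A probe entered if well above background on all arrays of 1 group, with at least 2 values per group, and the probe of highest mean signal stood for a gene. Groups were compared with limma 3.58.1 (lmFit and eBayes, R 4.3.3; two-sided; Benjamini-Hochberg adjustment over all genes, or over all probes in the probe fit; threshold 0.05). Names were updated through RefSeq (GRCm38.p6): 23374 probes by accession, 6733 by symbol and 2919 by synonym, while 8148 kept the file's name. The fit was tested on simulated data, where it recovered 61.1% of changes of log2 1 and 82.8% of changes of log2 2. The changes of all 9 members were smaller than log2 1. Members, lists and tests were chosen with earlier results of these data known. Named genes are all 9 members and the called or, where none, the 2 lowest-p genes of each pathway list. The 3 genes closest to Il1r1 and to Il1r2 were named too, as were the other IL-36 genes and Il33. Alternatives covered scaling, background correction, the dim-probe filter, the choice of probe, array weights, the slide and replicate blocks, and leaving out each array.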

Additional observations from a re-analysis of the deposited data

How the results depend on the processing

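No receptor family gene passed under any of the 19 alternatives run, in which Sigirr and Il1r2 kept their sign. The other signs turned as follows, and the cause was not tested unless given. Scaling each array to its median moved the median of all genes from 0.01 to -0.32 and the members with it, so that Il1r1 was at -0.085, Il1rap at -0.23, Il1rl2 at -0.15 (its RefSeq probe at -0.28), Il18r1 at -0.088 and Il18rap at -0.18. With quantile scaling, Il1rl1 was at -0.11 (its variant 1 probe at -0.059), Il18rap at -0.38, Il18bp at -0.0090 and the Il1rl2 RefSeq probe at -0.046. With the mean of a gene's probes Il1rap was at -0.011, and with array weights the dimmer Il1r2 probe was at -0.16. With the slide as a block the Il1rap variant 1 probe was at 0.0093. Within slide 1, Il1rap was at -0.044 and the dimmer Il1r2 probe at -0.65; within slide 2 the Il1rap variant 2 and variant 1 probes were at 0.19 and 0.14. With 1 array left out, Il18rap ran from -0.018 (without PBS 2) to 0.30, and the Il1rap variant 1 probe reached 0.10 (without PBS 3). For Il18bp, the probe of highest mean became the first probe without Anakinra 2 (-0.34), without Anakinra 3 (0.019) and within slide 1 (-0.21); the probe reported for the gene was there at 0.15, 0.36 and -0.13, and the highest value was 0.74. Among the fits with 1 array left out, the lowest values of the dimmer Il1r2 probe and the Il1rl2 RefSeq probe were -0.32 and -0.21. Both came without Anakinra 2, and the highest values in those fits were 0.71 and 0.31. Without Anakinra 3, Il1rap was at -0.11 and the first Il18bp probe at 0.019. Of the differences within an array, that between the Il1rl1 variants moved from 0.26 to 0.012 with normexp, Il1rap minus Il1r1 from -0.15 to -0.081 with quantile scaling, and Il1r2 minus Il1r1 turned to -0.16 without Anakinra 2. Quantile scaling of these differences, and holding the probe of a gene, were added after the data were seen.

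Whether the replicate numbers of the titles pair the arrays is not in the labels. Deviations from the group means correlated at 0.41, -0.49 and -0.21 between arrays of the same number. The highest value, 0.70, was between PBS 3 and Anakinra 2. These values cannot decide the pairing, since the deviations of 3 arrays in a group are tied to one another. With the replicate block 0 receptor family genes passed, as did 0 of all genes, and Sigirr was at -0.30 (limma adjusted p = 0.446). Over all genes, 160 were higher and 132 lower in the fit reported, against 8 and 49 with array medians, 7 and 29 with no filter on dim probes and 18 and 35 with the slide as a block; with 1 array left out, from 1 to 97 were higher and from 7 to 137 lower.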
